A study of Mus musculus with 42 samples.

Results

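The regions described here are mouse genome sites where SOX2 and β-catenin, but not LEF1, had high-ranked peaks in wild-type (WT) caudal epiblast-like cells (CEpiLCs). They were chosen from the peak lists of 9 chromatin immunoprecipitation sequencing (ChIP–seq) libraries of WT cells treated with CHIR, 3 each for SOX2, β-catenin and LEF1. The 20000 best peaks of every list, ranked by q-value, were merged where they overlapped by 1 bp or more, which gave 139863 regions. A region was taken when at least 2 of 3 SOX2 lists and at least 2 of 3 β-catenin lists had a peak in it and 0 of 3 LEF1 lists did, and 1374 regions met these terms. They are called LEF1-lacking regions below, and the 1283 regions with the same SOX2 and β-catenin support but a peak in at least 1 LEF1 list are called LEF1-bearing regions. Of these 1283, 605 had a LEF1 peak in 1 list only, 311 in 2 and 367 in 3, so many rest on a single LEF1 library. A further 1894 regions had SOX2 without β-catenin or LEF1, and 3392 had β-catenin without SOX2 or LEF1. The WT CHIR lists chose the regions, so their values are given as a description, and all tests use libraries that played no part in the choice.

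Every library came from HM1 (129) mouse embryonic stem (ES) cells differentiated for 72 h, with bFGF and the WNT secretion inhibitor LGK974 present in all groups. The WT CHIR, Cdx1/2/4-/- (CdxKO) and T/Bra-/- (T/BraKO) groups also received CHIR99021, a GSK3 inhibitor that stabilises β-catenin, on the last day, and the WT group without CHIR did not. SOX2, β-catenin and LEF1 were profiled in the WT CHIR, CdxKO and T/BraKO groups and SOX2 alone in WT cells without CHIR, with 3 libraries for each group, 30 in all. WT cells were the male HM1 TetON line from which the mutant ES lines derived, so each genotype is also a cell line, and line and genotype cannot be told apart. The libraries without CHIR and the mutant libraries differ both in genotype and in treatment. A region counts as called in a library when a peak among that library's 20000 best overlaps it, and read depth is unknown because the lists give no read totals. The lists varied from 26940 to 1008922 peaks, the former being replicate 3 of the T/BraKO SOX2 libraries and the latter replicate 1 of the WT CHIR SOX2 libraries.

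β-Catenin has no DNA-binding domain of its own. When WNT signalling stabilises it, it enters the nucleus and is brought to DNA by partners, classically the TCF/LEF proteins, of which LEF1 is a member alongside TCF7, TCF7L1 and TCF7L2. SOX2 is an HMG-box factor of pluripotent and neural progenitor cells that often binds beside POU factors. CDX1, CDX2 and CDX4 are homeodomain factors of the posterior embryo that activate Hox genes, and T/BRA is a T-box factor of the primitive streak; both are induced by WNT in the caudal epiblast.

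The windows below show what the regions look like in sequence. Each runs 100 bp to either side of the summit of the best-ranked WT CHIR SOX2 peak, from the plus strand of GRCm38 (mm10), and the line names the nearest protein-coding gene. Capitals mark motif matches on either strand. The SOX motif was taken as CCATTGT with the variant form CCTTTGT, and the TCF/LEF motif as CTTTGAA with the variant form CTTTGAT. For CDX the forms were CCATAAA as the first, then TCATAAA as another, then CAATAAA as well, and finally TAATAAA. POU was searched as ATGCNAAT, T-box as AGGTGTGA and FOXH1 as AATCCACA, where N is any base. No motif contains another. A match is a description of letters and not evidence of binding. The first 3 are among the highest-ranked regions, near Slc52a3 (chr2:152029441-152029641), Mfap1b (chr2:121483697-121483897) and Rif1 (chr2:52072150-52072350).
Slc52a3: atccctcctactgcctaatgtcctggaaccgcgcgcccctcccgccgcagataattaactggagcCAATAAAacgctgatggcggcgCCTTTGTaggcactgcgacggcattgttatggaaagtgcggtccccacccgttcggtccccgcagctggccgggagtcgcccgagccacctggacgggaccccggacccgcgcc
Mfap1b: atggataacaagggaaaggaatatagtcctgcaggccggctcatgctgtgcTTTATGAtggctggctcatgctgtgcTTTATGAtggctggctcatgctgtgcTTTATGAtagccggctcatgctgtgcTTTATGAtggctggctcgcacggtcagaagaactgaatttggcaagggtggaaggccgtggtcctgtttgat
Rif1: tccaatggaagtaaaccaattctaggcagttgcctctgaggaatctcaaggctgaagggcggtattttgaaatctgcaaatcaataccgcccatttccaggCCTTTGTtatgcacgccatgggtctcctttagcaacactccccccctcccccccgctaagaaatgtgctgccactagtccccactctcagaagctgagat

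The Slc52a3 window held a CDX and a SOX match, the Mfap1b window 4 CDX matches in a tandem repeat, and the Rif1 window a SOX match. The next pair are regions where both SOX2 and β-catenin were called in 0 of 3 CdxKO libraries, near Samd5 (chr10:9294634-9294834) and Lrrc18 (chr14:32986746-32986946), and they hold 1 and 4 CDX matches.
Samd5: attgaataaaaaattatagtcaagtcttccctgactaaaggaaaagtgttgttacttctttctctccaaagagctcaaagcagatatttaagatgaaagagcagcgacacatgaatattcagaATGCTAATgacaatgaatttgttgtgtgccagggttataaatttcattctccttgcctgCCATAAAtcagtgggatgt
Lrrc18: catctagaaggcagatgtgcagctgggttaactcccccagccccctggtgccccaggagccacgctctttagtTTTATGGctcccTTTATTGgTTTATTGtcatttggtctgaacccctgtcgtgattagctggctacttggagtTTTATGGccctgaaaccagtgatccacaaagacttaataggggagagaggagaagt

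The Wls window (chr3:159926634-159926834) is from a region with no SOX2 call without CHIR and carries a SOX match. The Lrrn3 window (chr12:41717075-41717275) was called for LEF1 in 3 of 3 CdxKO libraries and carries a TCF/LEF match.
Wls: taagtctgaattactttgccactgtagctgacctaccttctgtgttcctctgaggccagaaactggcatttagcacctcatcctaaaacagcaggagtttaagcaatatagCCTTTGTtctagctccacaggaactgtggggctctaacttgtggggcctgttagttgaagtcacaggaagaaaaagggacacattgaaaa
Lrrn3: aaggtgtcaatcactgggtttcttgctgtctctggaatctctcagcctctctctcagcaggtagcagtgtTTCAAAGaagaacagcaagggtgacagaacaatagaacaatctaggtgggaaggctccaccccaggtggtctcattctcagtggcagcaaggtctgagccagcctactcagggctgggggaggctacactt

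LEF1-lacking regions were supported by strong SOX2 peaks and weaker β-catenin peaks. Of the 1374 regions, 355 had a peak in all 3 SOX2 and all 3 β-catenin lists, 419 in 2 SOX2 and 3 β-catenin lists, 236 in 3 SOX2 and 2 β-catenin lists and 364 in 2 of each. The median of the best β-catenin rank was 3294, against 894 in LEF1-bearing regions, while the median of the best SOX2 rank was 1430 against 1009. The summits of the 2 factors lay close together, with a median distance of 38 bp, and 78.8% were within 100 bp. The regions were 639 bp wide at the median (quartiles 484 and 826), narrower than the 884 bp of LEF1-bearing regions. Their windows had a median GC content of 49.8%. By the annotation, 49.6% of summits were intergenic, 33.8% intronic and 1.31% exonic. Another 15.4% (95% Wilson interval 13.5 to 17.4) lay within 1000 bp of a protein-coding transcription start site (TSS), compared with 7.95% (6.59 to 9.56) of LEF1-bearing regions. The intervals on shares of regions cover counting error alone, and neighbouring regions are not independent.

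The rule depends on rank limits. The highest second-best ranks among the members were 19985 for SOX2 and 19984 for β-catenin, and the best LEF1 rank of the closest member was 20003. On the inside, 103 members had a second-best SOX2 rank and 145 a second-best β-catenin rank within 5000 of the limit. On the outside, 116 regions missed by a second-best SOX2 rank beyond 20000 and up to 25000, and 85 by a second-best β-catenin rank in that range. In 84 members the best LEF1 rank lay in the same range.

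Absence of LEF1 from the 20000 best peaks was not absence from the lists. In the full WT CHIR LEF1 lists, which hold 175430 to 723070 peaks, 280 members (20.4%) had no LEF1 peak, 540 had a peak in 1 list, 438 in 2 and 116 in 3. Thus 79.6% (77.4 to 81.7) of LEF1-lacking regions overlapped a low-ranked LEF1 peak, compared with 32.6% of all merged regions in 0 of 3 LEF1 lists, with 46.7% of regions with SOX2 alone and with 68.1% (66.5 to 69.6) of regions with β-catenin alone. These peaks were low. Over the members with a peak in a full list, the median of the best LEF1 rank was 97733. The median fold enrichment of the peaks was between 4.87 and 5.18 in the 3 libraries. At the 20000th peak the fold enrichment was between 6.01 and 8.27 in those libraries.

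The members carried SOX motifs at a share near that of the other SOX2 regions, and TCF/LEF motifs at a lower share than LEF1-bearing regions. A SOX match lay in 30.7% of windows (28.3 to 33.2), near the 28.7% of LEF1-bearing regions and 30.4% of regions with SOX2 alone. Its share was 10.6% of all merged regions and 6.62% of members' windows moved by 1000 bp. A TCF/LEF match lay in 15.1% of members (13.3 to 17.1), against 37.2% (34.6 to 39.9) of LEF1-bearing regions, 41.8% of regions with β-catenin alone, 5.02% of regions with SOX2 alone and 14.1% of all merged regions. The moved windows of the members gave 8.81% (7.42 to 10.4). The 280 members with no LEF1 peak in any full list had a TCF/LEF match in 8.93% (6.12 to 12.8), an interval that includes the share of the moved windows, and the other 1094 members in 16.6% (14.5 to 19.0).

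POU matches were found in 11.7% of members and 3.79% of all merged regions. CDX matches were found in 15.6% of members (13.8 to 17.6), close to the 15.1% of all merged regions and the 16.5% of moved windows. T-box matches were in 0.582% and FOXH1 matches in 0.946% of members. A SOX and a POU match occurred together in 35 windows, a SOX and a TCF/LEF match in 63, and 581 windows (42.3%) had none of the 6 motifs. In percentage points, TCF/LEF is the motif of the 6 in which members and LEF1-bearing regions stood furthest apart; T-box matches, rare in both, were in 0.582% and 1.71%.

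**Figure D1:**
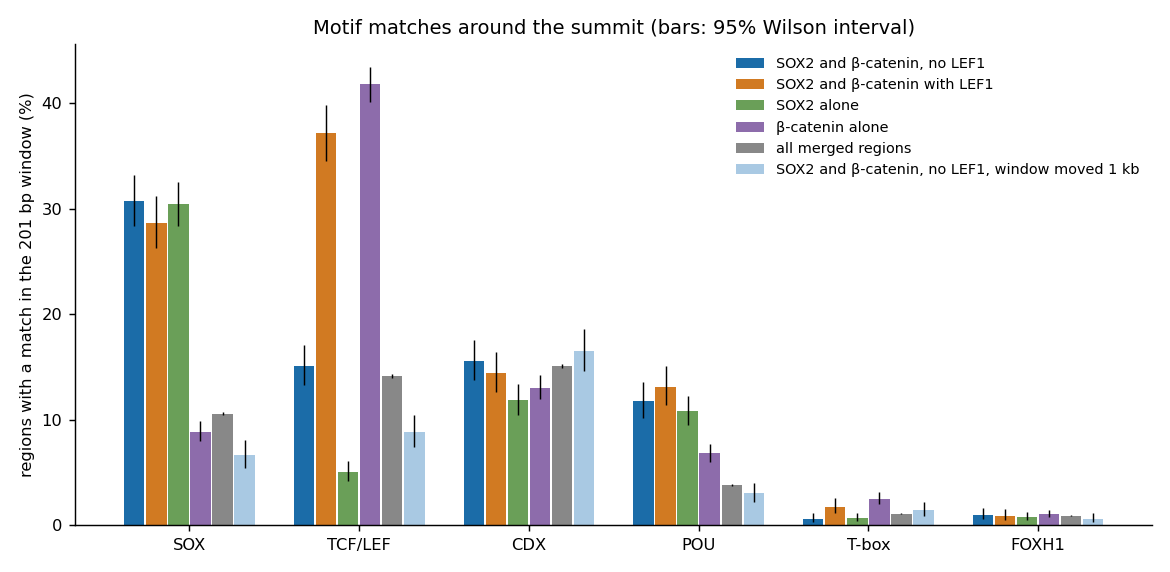
Share of regions (y axis, percent) with a match to each of 6 motifs (x axis) within 100 bp of the summit, for 5 sets of regions and for the LEF1-lacking regions with the window moved by 1000 bp. Lines are 95% Wilson intervals. The TCF/LEF share of LEF1-lacking regions, 15.1%, lies below that of LEF1-bearing regions, 37.2%, while the SOX shares lie together near 30%.

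LEF1 was called at fewer LEF1-lacking than LEF1-bearing regions in the mutants, in libraries that had no part in choosing them. Among the 1374 members LEF1 was called at 12.4%, 15.5% and 15.3% in the 3 CdxKO libraries and at 9.68%, 13.3% and 14.3% in the 3 T/BraKO libraries. These shares, with means of 14.4% and 12.4%, were above the 2.65% and 1.97% of all merged regions. Regions with β-catenin alone had means of 10.4% and 6.36%, and regions with SOX2 alone 2.25% and 1.62%. At LEF1-bearing regions the same libraries gave 53.9%, 55.8% and 56.6%, and 38.7%, 46.2% and 48.3%. All 6 libraries were lower at the members, with a mean difference of −36.5 percentage points (SD 5.24, n = 6). A two-sided exact sign-flip test gave p = 0.031, the smallest possible with 6 libraries, and the value adjusted by Benjamini–Hochberg over 10 tests was 0.104. The difference between mutants at the members was 1.97 percentage points and was within the spread of the libraries (exact permutation p = 0.3, adjusted p = 0.333).

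A minority of members had LEF1 in most libraries of a mutant. LEF1 was in at least 2 of 3 lists at 123 members (8.95%) in CdxKO and at 102 members (7.42%) in T/BraKO, where 0.684% and 0.355% of all merged regions without a WT LEF1 call met the same terms. The 2 groups together cover 192 members, and of these 25.5% (19.9 to 32.1) had a TCF/LEF match and 40.6% (33.9 to 47.7) a SOX match. Calls in 3 of 3 CdxKO and 0 of 3 T/BraKO libraries were made at 9 members (0.655%), against 0.0448% of all such regions, and the reverse at 3 (0.218%), against 0.00484%.

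At the region near Lrrn3 (leucine-rich repeat neuronal protein), within an intron of Immp2l, the LEF1 fold enrichment was 11.7, 11.6 and 9.36 in CdxKO. In T/BraKO it was 6.28 and 7.66 below the rank limit in replicates 1 and 2, and no peak was listed in replicate 3. The region near Lpar4, a lysophosphatidic acid receptor, showed the reverse pattern, with LEF1 among the 20000 best in 2 T/BraKO libraries, at 9.59-fold and 7.39-fold, and in none of the CdxKO ones. SOX2 and β-catenin were called in all 6 mutant libraries of each factor at both regions. The same held at Rif1, a replication-timing factor, where LEF1 reached 13.2-fold and 9.23-fold in CdxKO replicates 2 and 3.

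**Figure D2:**
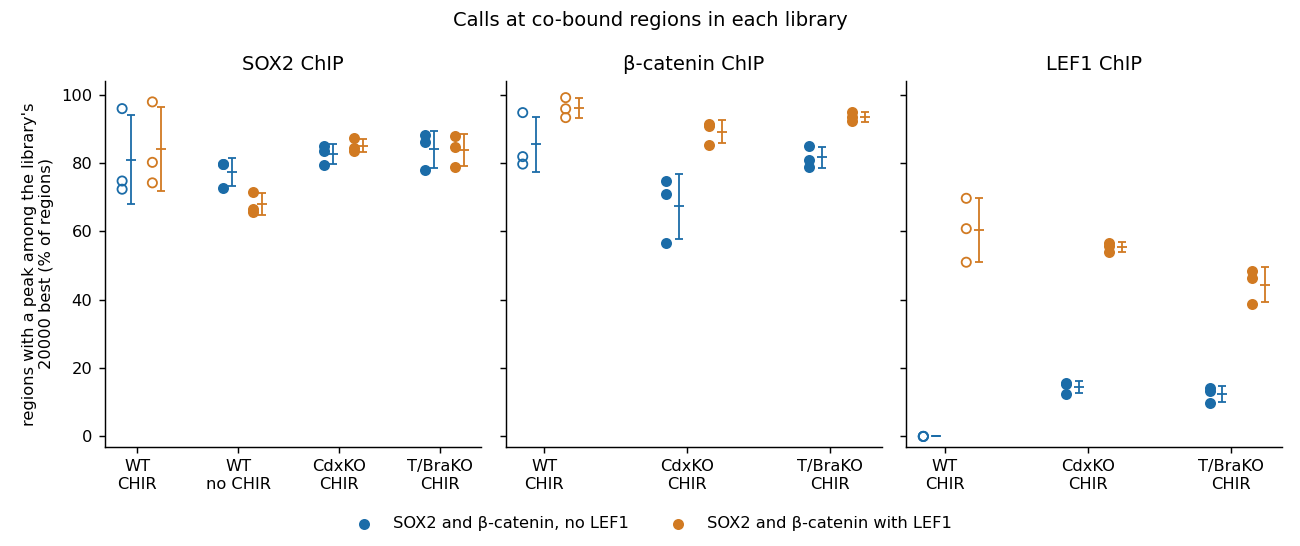
Share of LEF1-lacking (blue) and LEF1-bearing (orange) regions with a call (y axis, percent) in each library of SOX2, β-catenin and LEF1, by group (x axis). Points are libraries, lines are mean ± SD over 3 libraries, and open points are the WT CHIR libraries that chose the regions. β-Catenin and LEF1 calls are lower at LEF1-lacking regions in all mutant libraries.

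β-Catenin was called at fewer LEF1-lacking than LEF1-bearing regions in both mutants, and already in the WT CHIR lists that chose them. In WT CHIR, members minus LEF1-bearing regions averaged −10.7 percentage points (−14.0 to −4.38 over 3 libraries). Those lists chose both sets, so this value is a description and not a baseline for the mutants. The mean difference was −11.8 in T/BraKO and −21.8 in CdxKO. The members were called for β-catenin at 71.0%, 74.6% and 56.6% in CdxKO and at 85.0%, 81.0% and 78.9% in T/BraKO. LEF1-bearing regions were called at 90.9%, 91.3% and 85.3%, and at 94.9%, 92.2% and 93.4%. The within-library difference averaged −16.8 percentage points (SD 6.88, n = 6) and had the same sign in 6 of 6 libraries, with an exact sign-flip p of 0.031 and an adjusted p of 0.104. The 2 sets also differ in WT rank. For the regions with a best WT β-catenin rank of 1 to 1000, the members averaged 94.3% ± 1.36 in CdxKO and 92.0% ± 0.893 in T/BraKO against 96.2% ± 0.882 and 96.6% ± 0.882 (SD, n = 3). For ranks beyond 1000 and up to 5000 the means were 73.9% ± 9.93 and 87.3% ± 2.19 against 84.6% ± 6.60 and 93.2% ± 1.85. For ranks beyond 5000 the members had the higher mean in T/BraKO, at 65.98% ± 5.90 against 61.5% ± 8.02, and the lower in CdxKO, at 45.0% ± 10.9 against 51.0% ± 3.93. Rank moved with the difference, and its part in it was not tested.

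**Figure D3:**
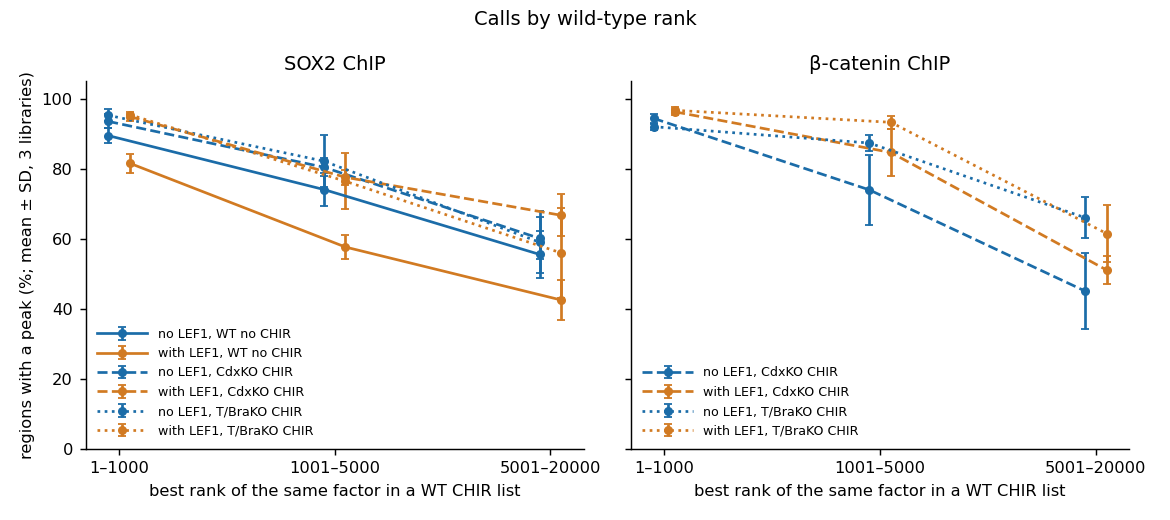
Share of regions with a SOX2 (left) or β-catenin (right) call (y axis, percent, mean ± SD of 3 libraries) against the best rank of the same factor in a WT CHIR list (x axis, 3 bands), for LEF1-lacking (blue) and LEF1-bearing (orange) regions. Calls decline with rank in both sets; dashed lines are CdxKO and dotted lines T/BraKO. LEF1-bearing regions without CHIR (solid orange) lie below the LEF1-lacking ones (solid blue) in all 3 bands.

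Between the mutants, β-catenin was called at fewer LEF1-lacking regions in CdxKO. Its mean was 67.4% ± 9.50 in CdxKO and 81.6% ± 3.11 in T/BraKO (SD, n = 3), a difference of 14.2 percentage points, and the 3 libraries of each group did not overlap. The exact permutation p was 0.1, the smallest that 3 against 3 can give, and the adjusted p was 0.153. Without replicate 3 of the CdxKO β-catenin libraries, the lowest of the group, the difference was −8.85 percentage points. The order was not particular to the members. LEF1-bearing regions had means of 89.2% in CdxKO and 93.5% in T/BraKO and all merged regions 7.14% and 8.45%, also without overlap. Regions with β-catenin alone had 52.9% and 55.9% and regions with SOX2 alone 8.62% and 13.1%, and there the libraries overlapped. β-Catenin was in at least 2 of 3 lists at 983 members (71.5%) in CdxKO and 1160 (84.4%) in T/BraKO. Of all regions in at least 2 of 3 WT CHIR β-catenin lists, 68.1% and 73.6% met the same terms. In 75 members (5.46%, background 4.44%) it was in 3 of 3 T/BraKO and 0 of 3 CdxKO lists, and in 27 (1.97%, background 4.27%) the reverse was found.

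SOX2 was called at most LEF1-lacking regions in both mutants. The shares were 83.4%, 85.0% and 79.5% in CdxKO and 77.9%, 86.0% and 88.1% in T/BraKO, and the groups overlapped. The difference of −1.36 percentage points had an exact permutation p of 0.7 (adjusted p = 0.7). SOX2 was in at least 2 of 3 lists at 1153 members (83.9%) in CdxKO and 1191 (86.7%) in T/BraKO, against 75.9% and 76.3% of all regions in at least 2 of 3 WT CHIR SOX2 lists. Members minus LEF1-bearing regions within the mutant libraries gave −1.15 percentage points (SD 1.88, n = 6, exact sign-flip p = 0.25, adjusted p = 0.3125).

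SOX2 and β-catenin did not always go together. In CdxKO, 898 members had both factors in at least 2 of 3 lists, 255 had SOX2 without β-catenin, 85 had β-catenin without SOX2 and 136 had neither. In T/BraKO the counts were 1061, 130, 99 and 84. SOX2 without β-catenin was thus found at 18.6% of members in CdxKO and 9.46% in T/BraKO, against 11.8% and 5.95% of all 2657 regions with both factors in WT CHIR, LEF1-bearing ones included. In CdxKO, both factors were found at 65.4% of members, against 73.7% of the same 2657 regions. β-Catenin without SOX2 was found at 6.19% against 7.11%, and neither factor at 9.898% against 7.41%. In T/BraKO these shares were 77.2% against 80.2%, 7.21% against 8.995% and 6.11% against 4.82%. In each class the 2 mutants were in the same order over all 2657 regions, and the counts carry no test.

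Without CHIR, SOX2 was present at most LEF1-lacking regions. It was called at 79.6%, 79.8% and 72.7% of them, and in at least 2 of 3 lists at 1088 (79.2%, background 71.8%). In all 3 lists it was found at 907 members (66.0%, against 56.0% of LEF1-bearing regions), and in 0 of 3 at 180 (13.1%, against 19.4%). The mean of 77.4% ± 4.03 (SD, n = 3) was 5.94 percentage points under that of the 6 mutant libraries with CHIR, 83.3% ± 3.93 (SD, n = 6), with an exact permutation p of 0.107 (adjusted p = 0.153). Without replicate 3 of the libraries lacking CHIR this difference was −3.61.

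LEF1-bearing regions were called for SOX2 less often than the members without CHIR. They were called at 71.6%, 66.6% and 65.8% without CHIR, lower than the members in every library, whereas in the mutant libraries with CHIR members minus LEF1-bearing regions ranged from −4.08 to 1.38 percentage points. The difference between members and LEF1-bearing regions was 10.5 percentage points higher without CHIR than in the 6 mutant libraries (exact permutation p = 0.0119, the smallest that 3 against 6 can give, adjusted p = 0.104). The order was the same within bands of WT SOX2 rank. For best ranks of 1 to 1000 the members averaged 89.4% ± 2.24 without CHIR and LEF1-bearing regions 81.5% ± 2.71 (SD, n = 3), for ranks beyond 1000 and up to 5000 the values were 74.0% ± 4.84 and 57.6% ± 3.44, and beyond 5000 they were 55.5% ± 6.75 and 42.5% ± 5.66.

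The members without SOX2 in the absence of CHIR had a different motif content. TCF/LEF matches were found in 24.4% (18.7 to 31.2) and CDX matches in 32.8% (26.3 to 39.9) of the 180 members called in 0 of 3 of these libraries. The 907 members called in 3 of 3 had 9.92% (8.14 to 12.04) and 11.5% (9.55 to 13.7). SOX matches were in 25.6% (19.7 to 32.4) and 33.7% (30.7 to 36.9), with intervals that overlap. LEF1-bearing regions were ordered in the same way, with TCF/LEF matches in 53.0% and 31.9% and CDX matches in 25.7% and 10.6%. A stricter group of 36 members (2.62%, background 4.59%) had SOX2 in 0 of 3 lists without CHIR and in at least 2 of 3 in each mutant, and 17 of them had a TCF/LEF match.

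An example is an intronic region of Wls, which encodes the carrier that moves WNT proteins to the cell surface. SOX2 enrichment there was 16.0, 13.3 and 32.9 in WT CHIR, 7.84, 7.28 and 6.63 in CdxKO and 13.0, 15.5 and 32.8 in T/BraKO, all among the 20000 best peaks. Without CHIR, replicate 1 had no peak, and replicates 2 and 3 had weak ones at 6.28 and 3.87. Near Ctdsp2, a phosphatase gene, β-catenin enrichment was among the highest of any member, with 85.4, 70.3 and 113 in WT CHIR, and SOX2 without CHIR was 3.53, 4.82 and 3.37, all below the rank limit. LEF1 there was called in 1 of the 6 mutant libraries.

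Members with a CDX match were called less often in CdxKO than those without. Of the 1374 members, 214 had a CDX match. They were called for β-catenin at a mean of 50.9% ± 8.19 in CdxKO and 83.5% ± 4.44 in T/BraKO, and the other 1160 at 70.4% ± 9.82 and 81.3% ± 3.23 (SD, n = 3). Within libraries, members with a match minus those without gave −23.2, −18.6 and −16.7 percentage points in CdxKO and 3.37, −2.41 and 5.63 in T/BraKO. The groups did not overlap and the difference was −21.7 points, with an exact permutation p of 0.1, the smallest possible, and an adjusted p of 0.153.

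SOX2 gave the same direction. Members with a CDX match minus those without gave −24.6, −22.1 and −22.7 points in CdxKO and −10.9, −11.1 and 2.51 in T/BraKO, a difference of −16.7 points with the same exact permutation p of 0.1 and adjusted p of 0.153. In WT cells without CHIR the values were −19.6, −21.4 and −20.3. LEF1-bearing regions with a CDX match showed differences between mutants of −17.7 points for β-catenin and −20.6 for SOX2, so the pattern was not particular to regions lacking LEF1. For SOX, TCF/LEF and POU at the members, CdxKO minus T/BraKO ranged from −0.879 to 1.83 points over both factors, and all these groups overlapped. Outside the members, groups did not overlap for SOX at LEF1-bearing regions (β-catenin, −1.48) and for TCF/LEF at regions with SOX2 alone (SOX2, −6.17). The T-box motif, in 8 members, went the opposite way to CDX for β-catenin: members with a match minus those without gave −8.51, 0.403 and 5.91 points in CdxKO and −22.6, −18.6 and −16.5 in T/BraKO, a difference of 18.5 with no overlap. It was 15.2 at the 22 LEF1-bearing regions with a match and 28.4 at the 85 regions with β-catenin alone, also without overlap. For SOX2 the T-box groups overlapped, as did the FOXH1 groups (13 members) for both factors. These comparisons with other motifs were chosen after the values were seen and carry no test.

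The number of CDX matches followed the same order. β-Catenin in CdxKO was called at 70.4% ± 9.82 of members with 0 matches, 52.4% ± 7.85 of the 185 with 1 and 41.4% ± 10.3 of the 29 with 2 or more (SD, n = 3). In T/BraKO the means were 81.3% ± 3.23, 82.9% ± 4.37 and 87.4% ± 7.18. SOX2 without CHIR was called at 80.5% ± 4.06, 63.8% ± 4.71 and 36.8% ± 1.99, and SOX2 in CdxKO at 86.2% ± 2.85, 65.4% ± 3.74 and 48.3% ± 9.12. In T/BraKO, SOX2 was called at 85.0% ± 4.70, 79.8% ± 9.08 and 70.1% ± 22.4. At the 29 regions its libraries varied widely, at 48.3%, 69.0% and 93.1%. Replicates 1 and 2 declined with the number of matches and replicate 3 did not.

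**Figure D4:**
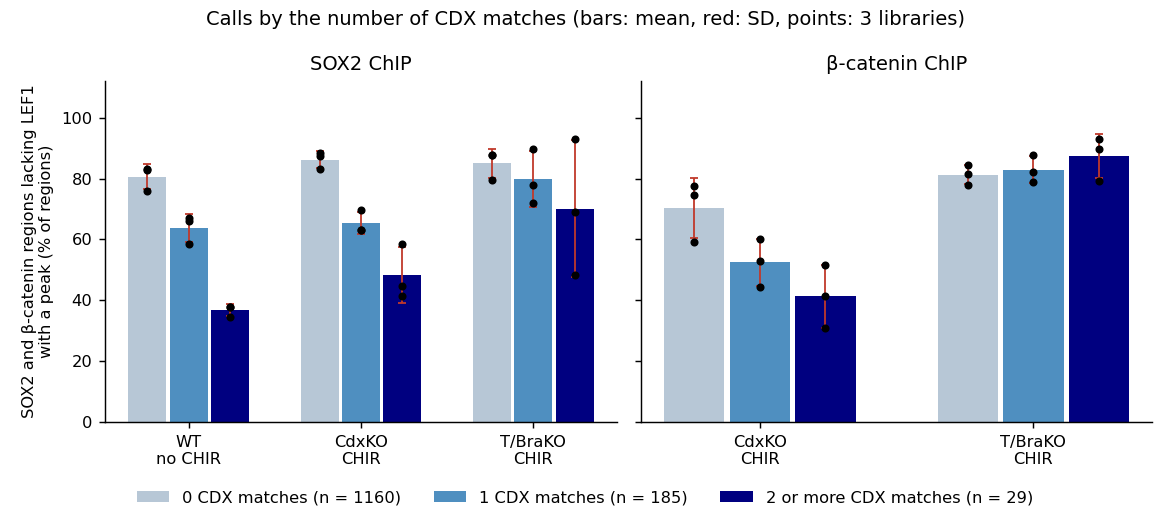
Share of LEF1-lacking regions with a SOX2 (left) or β-catenin (right) call (y axis, percent) by group (x axis) and by the number of CDX matches in the window. Bars are means, red lines SD and points the 3 libraries. β-Catenin declines with the number of matches in CdxKO, from 70.4% to 41.4%, and not in T/BraKO.

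In 37 members (2.69%, background 2.41%) both SOX2 and β-catenin were called in 0 of 3 CdxKO libraries while β-catenin was in at least 2 of 3 T/BraKO libraries. A CDX match was in 30 of them, or 81.1% (65.8 to 90.5), compared with 15.6% of all members. The intronic region of Wdfy4 near Lrrc18, whose window is printed above, had β-catenin enrichment of 32.0, 30.4 and 37.6 in WT CHIR and 30.8, 28.2 and 29.8 in T/BraKO. No β-catenin peak was listed there in any CdxKO library. The Samd5 region had 13.7, 9.99 and 21.4 in WT CHIR and 18.1, 16.98 and 26.2 in T/BraKO. Neither factor had a peak there in any CdxKO library, nor SOX2 in any library without CHIR. In T/BraKO, SOX2 was called at the Samd5 region in 1 of 3 libraries. A region near Kcnma1, a potassium channel gene, within an intron of Lrmda, had 27.6, 13.9 and 24.0 in T/BraKO and no β-catenin peak in CdxKO. The region near Strap, also among the 4 best ranked, had 8.14, 6.95 and 16.6 in WT CHIR and 8.62, 5.35 and 7.01 in T/BraKO, the second of these below the rank limit. In CdxKO a peak of 2.95 was listed in replicate 2 alone.

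The mirror image was found in 18 members (1.31%, background 1.47%), and both counts lie near their backgrounds. In these both factors were in 0 of 3 T/BraKO libraries and β-catenin in at least 2 of 3 CdxKO libraries. The region near Kitl, which encodes the KIT ligand, had β-catenin at 14.6, 27.1 and 28.0 in WT CHIR and 9.38, 7.56 and 17.3 in CdxKO, and no SOX2 or β-catenin peak was listed there in T/BraKO. The region near Olfr893, an olfactory receptor gene, had β-catenin at 8.73, 11.3 and 10.7 in CdxKO and likewise no peak of either factor in T/BraKO. Near Ces2h, a carboxylesterase gene, weak peaks below the rank limit were listed for SOX2 in all 3 T/BraKO libraries, at 5.41, 5.76 and 4.22.

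The T-box core GTGTGA, which lies within the T-box motif, was also searched on either strand, a choice made after sequences of these regions were seen. The core was in 10 of the 18 members, 55.6% (33.7 to 75.4), against 11.4% of all 1374 members, 12.2% of all merged regions and 1 of the 37 members lost in CdxKO. The full 8-base T-box motif was in 1 of the 18.

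**Figure D5:**
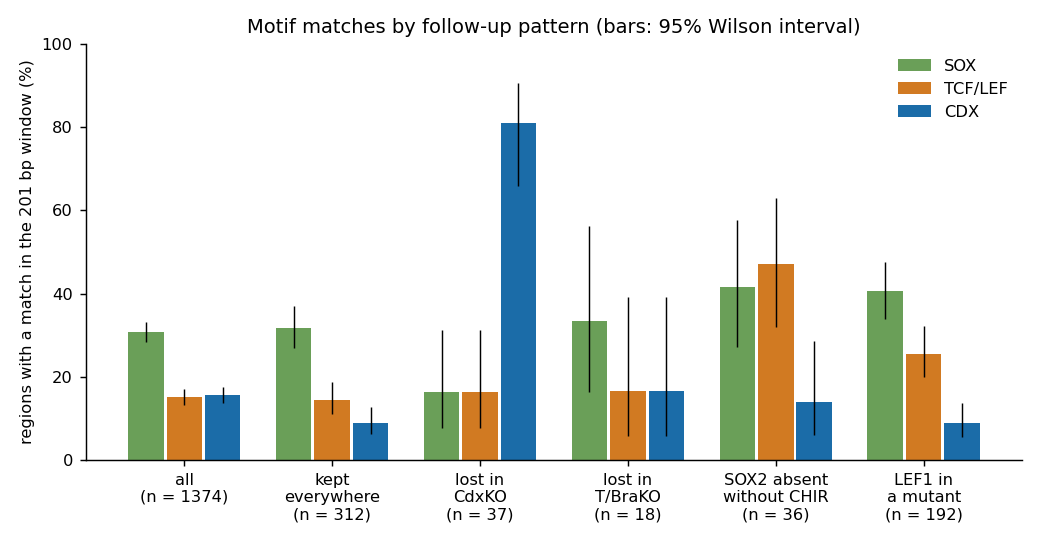
Share of LEF1-lacking regions with a SOX, TCF/LEF or CDX match in the window (y axis, percent) for all regions and for 5 follow-up patterns (x axis, with the number of regions). Lines are 95% Wilson intervals. The CDX share is 81.1% in regions lost in CdxKO and the TCF/LEF share 47.2% in regions where SOX2 was absent without CHIR.

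At the other end, 312 members (22.7%, background 30.8%) kept all calls, with SOX2 in 3 of 3 libraries in WT without CHIR, CdxKO and T/BraKO and β-catenin in 3 of 3 in both mutants. CDX matches were in 8.97% of these (6.28 to 12.7), SOX in 31.7% and TCF/LEF in 14.4%. The best-ranked region of the whole set, 29644 bp downstream of the Slc52a3 TSS, belongs to this pattern. Slc52a3 encodes a riboflavin transporter. β-Catenin enrichment at the region was 64.2, 47.5 and 76.3 in WT CHIR, 34.3, 22.6 and 25.3 in CdxKO and 50.3, 66.2 and 36.4 in T/BraKO, so all 3 CdxKO values were below the others although each was called. SOX2 was 18.9, 16.9 and 36.6 without CHIR and 50.4, 39.3 and 70.6 in WT CHIR. The WT CHIR lists chose and ranked this region, so these values do not measure an effect of CHIR. Over all members with a listed peak, the median β-catenin enrichment was 8.72, 8.25 and 10.5 in WT CHIR. This median was 8.82, 9.05 and 7.39 in CdxKO and 12.4, 10.7 and 9.16 in T/BraKO.

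The Mfap1b region, with its 4 CDX matches, ranked next. Its β-catenin enrichment was 46.6, 29.5 and 45.5 in WT CHIR and 68.1, 57.9 and 17.2 in T/BraKO, but 6.11 and 6.24 in CdxKO replicates 1 and 2, with no peak in replicate 3. Rif1, Srrm4 (a neural splicing factor) and Spry2 (an inhibitor of FGF signalling) kept every call. At Srrm4, SOX2 was 50.8, 39.8 and 39.1 without CHIR and 88.8, 61.1 and 102 in CdxKO. At Slc25a17, a peroxisomal carrier gene, β-catenin was 13.1, 19.9 and 28.3 in WT CHIR, 12.9, 13.1 and 17.9 in CdxKO and 43.7, 16.7 and 26.4 in T/BraKO.

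Shares of regions nearest to genes of neural and pluripotency lists were higher in LEF1-lacking than in LEF1-bearing regions, and those for posterior and WNT lists lower. Every list had a higher share in the members than in all merged regions. Of the members, 28 (2.04%) were nearest to 20 genes of a neural list of 35 and 23 (1.67%) to 13 genes of a pluripotency list of 26. LEF1-bearing regions had 10 (0.779%) for each list, and all merged regions 0.756% and 0.357%. For a list of caudal epiblast and Cdx/Hox genes the members had 10 (0.728%) and LEF1-bearing regions 22 (1.71%), with 0.178% of all merged regions. For WNT feedback and TCF/LEF genes the counts were 11 (0.801%) and 27 (2.10%), with 0.418%. Primitive streak and mesoderm genes had 13 (0.946%) and 14 (1.09%), with 0.257%, and FGF, BMP and Notch genes 13 (0.946%) and 17 (1.33%), with 0.460%. Nearest-gene assignment does not show regulation, and these counts carry no test.

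The calls of each list are small counts, to be read against all 1374 members and the background. SOX2 was in at least 2 of 3 lists at 79.2% of members without CHIR (background 71.8%), 83.9% in CdxKO (75.9%) and 86.7% in T/BraKO (76.3%), and β-catenin at 71.5% in CdxKO (68.1%) and 84.4% in T/BraKO (73.6%). No list was tested against them. The neural regions had SOX2 in at least 2 of 3 lists at 25 of 28 without CHIR, 23 in CdxKO and 25 in T/BraKO, and β-catenin at 17 in CdxKO and 25 in T/BraKO. Gbx2, a homeobox gene of the posterior neural plate, was the best ranked. Its β-catenin enrichment was 24.7, 18.8 and 18.4 in WT CHIR, 11.4, 15.4 and 8.91 in CdxKO and 51.3, 38.5 and 23.0 in T/BraKO. The mutants did not overlap in the medians over all members given above, nor did they at Gbx2. SOX2 there was 54.9, 53.9 and 15.7 in CdxKO and 47.2, 50.1 and 38.3 in T/BraKO. Nkx6-1 and En1, homeobox genes of ventral and midbrain progenitors, each had a region with β-catenin in 0 of 3 CdxKO and 3 of 3 T/BraKO lists while SOX2 was in at least 2 of 3 in both.

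The pluripotency regions had β-catenin in at least 2 of 3 lists at 14 of 23 in CdxKO and 20 in T/BraKO, and SOX2 at 16 and 20, with 17 without CHIR. They included Sox2 itself, Pou5f1, which encodes OCT4, Nanog, Otx2 and 5 regions near Sall4. The best ranked was in an intron of Lin28a, an RNA-binding protein of early embryonic cells. Its β-catenin enrichment was 32.4, 23.5 and 41.3 in WT CHIR and 34.9, 14.6 and 36.4 in T/BraKO, against 11.8 and 5.66 in CdxKO replicates 1 and 3 and no peak in replicate 2.

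All 10 regions of the caudal epiblast and Cdx/Hox list had β-catenin in at least 2 of 3 T/BraKO lists, and 5 did so in CdxKO. SOX2 was in at least 2 of 3 lists at 5 without CHIR, 5 in CdxKO and 8 in T/BraKO. The 5 regions without such a β-catenin call in CdxKO were nearest to Hoxb7, Hoxb8 (2 regions), Hoxb9 and Hoxc4, posterior Hox genes for all but the last. The best ranked of them lay 923 bp downstream of the Hoxb8 TSS and held a CDX and a TCF/LEF match. Its β-catenin enrichment was 16.9, 12.9 and 11.8 in WT CHIR and 20.6, 13.6 and 20.2 in T/BraKO, and in CdxKO replicate 3 alone a weak peak of 3.65 was listed, below the rank limit. The regions near T, Evx1, Hoxa2 and Hoxb1 had β-catenin in 3 of 3 lists of both mutants.

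The 11 regions of WNT feedback and TCF/LEF genes had β-catenin in at least 2 of 3 lists at 9 in CdxKO and at all 11 in T/BraKO. They were near Sp8, a WNT-responsive zinc finger gene, Sp5, Myc, Tnfrsf19, Tcf7l1, Tcf7l2 and Lef1. The FGF, BMP and Notch regions had SOX2 at all 13 in each of the 3 followed groups and β-catenin at 12 in CdxKO and 13 in T/BraKO. Spry2 had β-catenin enrichment of 22.3, 17.1 and 39.1 in WT CHIR, 21.4, 24.1 and 17.1 in CdxKO and 21.6, 15.0 and 18.1 in T/BraKO. The 13 primitive streak and mesoderm regions had β-catenin at 12 in CdxKO and 11 in T/BraKO. Lefty1, an antagonist of NODAL and the best ranked, had SOX2 enrichment of 39.3, 35.3 and 20.3 without CHIR and 27.8, 42.2 and 43.9 in CdxKO. A region near Mesp1, a gene of nascent mesoderm, had β-catenin in 3 of 3 CdxKO and 0 of 3 T/BraKO lists, and a region near Nodal had SOX2 in 0 of 3 lists without CHIR and in 3 of 3 of each mutant.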

How the data were processed

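ChIP–seq libraries of SOX2, β-catenin and LEF1 were deposited as MACS2 narrow peak lists, 30 lists from 42 samples; the 12 input samples were not analysed here. Per the study's methods, the authors trimmed reads, aligned them to mm10 with BWA, filtered them and called peaks in each library with MACS at the default q-value threshold. The deposited columns used were the fold enrichment (a ratio), −log10 p-value and −log10 q-value of each peak and its summit. The deposited score column repeats these and was used for nothing. Which input served as control is not given in the sources used here. All peaks ended within GRCm38 chromosome lengths.

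Within each list, peaks of the main chromosomes were put in order of q-value, with ties broken by p-value and enrichment. Genes came from GENCODE M21 (nearest protein-coding TSS to the SOX2 summit; regions without SOX2 used the β-catenin or LEF1 summit). The motif window reached 100 bp to either side of that summit. Exact permutation and sign-flip tests over libraries were two-sided, at 0.05 after Benjamini–Hochberg adjustment over 10 tests; none of the 10 passed. Region calls were checked on simulated lists, the permutation test against SciPy and the sign-flip test on a known case. The motif search was checked on short strings for SOX, TCF/LEF and CDX only. The members, gene lists and motifs were chosen with earlier results of these data known. Regions named are the 6 with the best mean rank over the 6 WT CHIR SOX2 and β-catenin lists, the 4 best of each follow-up pattern and the best of each gene list; other genes of the lists were named after their values were seen. Some items that this rule names are not reported here. The labels call the 3 libraries of a group independent biological replicates, and all carry the same experiment number. Alternatives covered rank limits, ranking by fold, overlap, support, LEF1 lists, each library left out, the replicate block and motif windows. Python 3.11.15, SciPy 1.17.1, pysam 0.24.0 and samtools 1.23.1 were used.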

Additional observations from a re-analysis of the deposited data

Results flagged for a closer look

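The SOX2 calls without CHIR were singled out because the gap between LEF1-lacking and LEF1-bearing regions differed between groups. It was 7.99, 13.1 and 6.92 percentage points in favour of LEF1-lacking regions in the 3 libraries without CHIR and averaged −1.15 points in the 6 mutant libraries, a difference of 10.5 points (exact permutation p = 0.0119, adjusted p = 0.104). Treatment and genotype cannot be told apart in this comparison.

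The WT CHIR LEF1 peaks ranked below 20000 were singled out because they are outside the measurement that chose the regions. They overlapped 79.6% of LEF1-lacking regions (77.4 to 81.7), against 32.6% of all merged regions in 0 of 3 LEF1 lists and 68.1% (66.5 to 69.6) of the regions with β-catenin and neither SOX2 nor LEF1. Members were also wider than all merged regions, with medians of 639 and 186 bp, and the part of width in this share was not tested.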

How the results depend on the processing

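The differences between members and LEF1-bearing regions kept their sign in every alternative for β-catenin in the mutants (−27.5 to −8.58 percentage points), LEF1 in the mutants (−43.4 to −26.8) and SOX2 without CHIR against the mutants (6.07 to 12.3). So did β-catenin in CdxKO minus T/BraKO (−21.6 to −8.85), SOX2 without CHIR minus the mutants (−10.3 to −3.28) and the CDX contrasts for β-catenin (−26.8 to −19.4) and SOX2 (−26.3 to −11.6). The lowest adjusted p in any alternative was 0.0595. With the full lists, the β-catenin and SOX2 differences between the sets were −9.67 and 6.07; with support in 3 of 3 lists the former was −8.58, and for members in no full LEF1 list −27.5. Small differences turned: SOX2 in CdxKO minus T/BraKO ranged from −4.42 to 0.679 with a library left out, being above 0 without replicate 3 of T/BraKO SOX2 (0.679), replicate 3 of CdxKO SOX2 (0.218) or replicate 1 of WT CHIR β-catenin (0.236). SOX2 in members minus LEF1-bearing regions ranged from −2.27 to 0.350, the latter without replicate 1 of WT CHIR SOX2. LEF1 in CdxKO minus T/BraKO was −0.595 at members in no full LEF1 list. The cause was not tested.

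The number of members was 355 with support in 3 of 3 lists, 364 with exactly 2 of 3 and 280 with no peak in a full LEF1 list. With a library left out it ranged from 643 (without replicate 3 of WT CHIR SOX2) to 1673. Motif shares in these 3 subsets that moved were SOX 33.2%, POU 14.9%, T-box 0.282% and FOXH1 0.282% in the first, POU 9.34% and FOXH1 1.92% in the second, and TCF/LEF 8.93%, CDX 13.2%, POU 8.21% and FOXH1 1.79% in the third. Around β-catenin summits SOX was 25.2% and TCF/LEF 19.1%. Within 50 bp of the SOX2 summit SOX was 22.9%, TCF/LEF 8.81%, CDX 8.66%, POU 9.24% and T-box 0.146%, as fewer bases were searched. With a library left out, SOX ranged from 27.7% to 33.4%, TCF/LEF from 11.4% to 17.1%, CDX from 14.3% to 17.6%, POU from 11.3% to 14.3%, T-box from 0.467% to 1.02% and FOXH1 from 0.353% to 1.08%.

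The replicate block changed no call: the SOX2 difference without CHIR stayed at 10.5 points (exact p = 0.037, adjusted p = 0.259). Same-numbered libraries correlated weakly in their deviations from group means (r from 0.00869 to 0.104). In 4 of 5 pairs of groups, all 3 libraries of 1 group correlated best with their own number in the other. For SOX2 in CdxKO and T/BraKO this did not hold in both directions. T/BraKO replicate 1 correlated best with CdxKO replicate 3 (r = 0.0398, against 0.0161 with replicate 1). The pairing is a hint from the data and not the design. Counting only peaks within 100 bp of the SOX2 summit, an alternative chosen after seeing the data, gave −16.4 for β-catenin, −33.5 for LEF1 and 10.8 for SOX2 without CHIR. Depth is unknown and lists differ in length, so a missing peak may be one below detection, and 3 libraries against 3 cannot reach an exact p under 0.1.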
